A study of Mus musculus with 25 samples.

Results

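The genes described here encode YAP, TAZ, the TEAD transcription factors and their Vestigial-like partners, as 8 mouse genes: Yap1, Wwtr1 (which encodes TAZ), Tead1, Tead2, Tead3, Tead4, Vgll3 and Vgll4. They were taken from the count table by these symbols, which all 8 matched, out of 37117 gene symbols. The rule that took them uses symbols and no measured value, though earlier results of these data were known when they were chosen. RNA was measured in sorted mouse hepatocytes with QuantSeq 3′ mRNA-Seq FWD, which reads 1 tag at the 3′ end of each polyadenylated transcript, in 25 libraries of 7 groups. The mouse symbols do not count the human YAP transgene as such, and its 3′ end is not given in the labels.

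The ApoYap strain carries ApoE-rtTA and TRE-hYAP, so that doxycycline switches on human YAP under control of the apolipoprotein E promoter, which is active mainly in hepatocytes. ApoYap Dox (n = 3) received 0.2 mg/ml doxycycline with 2.5% sucrose for 1 week, and ApoYap ctrl (n = 4) carried the same alleles without treatment. Lats1/2 KO (n = 3) were Lats1 flox/flox; Lats2 flox/flox mice sampled 1 week after AAV8 carrying Cre under the hepatocyte TBG promoter, and Lats1/2 flox ctrl (n = 4) were untreated mice of that strain. BL/6 Dox (n = 4) were C57BL/6 mice given the same doxycycline and sucrose for 1 week, BL/6 AAV-Cre (n = 3) were C57BL/6 mice sampled 24 hours after the same virus, and BL/6 ctrl (n = 4) were untreated C57BL/6 mice. The virus groups therefore differ in time as well as in the floxed alleles. Sex, age and batch are not in the labels, and neither is the origin of the replicates (separate mice or not), so p-values measure the spread between these libraries, which may be technical.

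YAP and TAZ are transcriptional coactivators that bind no DNA themselves. When the Hippo kinases LATS1 and LATS2 do not phosphorylate them they enter the nucleus and act on their target genes through the TEAD factors, which bind DNA. VGLL proteins bind the TEADs as well, and VGLL4 competes with YAP for them and lowers the output of the complex. In liver this pathway limits organ size, and unrestrained YAP makes hepatocytes divide and lose hepatocyte features.

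The promoters of the factors are shown because the TEADs are known to bind the sequence CATTCC, the M-CAT core. Windows of 300 bases, from 250 before to 50 after each transcription start, were available in RefSeq (GRCm38.p6) for 6 of the 8 genes. Tead1 and Tead4 are named only. Matches to CATTCC on either strand (GGAATG is its complement) are in capitals.
Yap1, chr9:8004547-8004846, minus strand: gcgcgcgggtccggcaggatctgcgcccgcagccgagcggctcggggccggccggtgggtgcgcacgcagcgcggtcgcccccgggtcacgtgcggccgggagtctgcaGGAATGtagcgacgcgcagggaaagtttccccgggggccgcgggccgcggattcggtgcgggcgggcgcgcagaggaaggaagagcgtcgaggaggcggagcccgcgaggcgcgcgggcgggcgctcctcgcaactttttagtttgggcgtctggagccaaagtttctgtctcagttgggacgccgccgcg
Wwtr1, chr3:57575861-57576160, minus strand: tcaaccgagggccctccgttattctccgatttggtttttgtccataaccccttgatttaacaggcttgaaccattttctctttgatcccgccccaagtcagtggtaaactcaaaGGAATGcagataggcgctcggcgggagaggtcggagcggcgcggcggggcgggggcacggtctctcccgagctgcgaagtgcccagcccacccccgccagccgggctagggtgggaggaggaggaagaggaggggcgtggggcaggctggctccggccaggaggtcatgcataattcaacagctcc
Tead2, chr7:45215542-45215841, plus strand: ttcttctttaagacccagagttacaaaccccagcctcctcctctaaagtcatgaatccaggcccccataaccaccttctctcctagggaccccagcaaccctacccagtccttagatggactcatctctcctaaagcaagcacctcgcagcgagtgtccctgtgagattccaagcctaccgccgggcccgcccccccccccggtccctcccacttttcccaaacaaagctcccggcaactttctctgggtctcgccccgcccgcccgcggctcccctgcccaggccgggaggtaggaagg
Vgll3, chr16:65814939-65815238, plus strand: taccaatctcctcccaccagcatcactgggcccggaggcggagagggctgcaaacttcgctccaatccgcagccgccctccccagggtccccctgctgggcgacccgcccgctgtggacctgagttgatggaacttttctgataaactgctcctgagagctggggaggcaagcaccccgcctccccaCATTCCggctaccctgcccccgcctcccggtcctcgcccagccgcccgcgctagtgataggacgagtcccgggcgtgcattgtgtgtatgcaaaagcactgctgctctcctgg
Vgll4, chr6:114969154-114969453, minus strand: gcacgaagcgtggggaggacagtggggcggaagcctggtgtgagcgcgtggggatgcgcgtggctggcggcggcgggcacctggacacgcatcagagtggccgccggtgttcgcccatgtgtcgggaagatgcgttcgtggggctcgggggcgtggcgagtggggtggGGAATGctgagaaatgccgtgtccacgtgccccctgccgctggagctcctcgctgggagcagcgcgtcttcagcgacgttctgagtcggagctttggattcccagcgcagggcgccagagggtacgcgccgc
In these windows the match starts at position -141 in Yap1, -136 in Wwtr1, -63 in Vgll3 and -82 in Vgll4, counted from the transcription start as 0, and the Tead2 window holds none. Over its 3 windows Tead3 holds matches too. Thus 5 of the 6 genes with a window hold CATTCC in at least 1 of them, against 16.6% of all 27025 genes with a window (14.7% of 32851 windows of the same length) and 7 of 15 genes of the YAP and TAZ target signature with a window. The AP-1 site TGANTCA was in the windows of 0 of the 6 genes, against 8.97% of all genes. A match is a description of these letters and not a measured site. With TMM scaling, Wwtr1 and Yap1, which both hold a match, changed in opposite directions in the comparisons that follow.

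Totals ranged from 8107539 to 16515330 counts, and 1 count was worth 0.036 to 0.14 CPM, the usual unit of counts set to a common library size (here with TMM factors, a trimmed mean of ratios between libraries). Lats1 stood at 5.10, 4.79 and 2.97 CPM in Lats1/2 KO and at 12.3 to 14.9 CPM in Lats1/2 flox ctrl. Lats2 overlapped between these groups, at 7.70 to 17.8 CPM in Lats1/2 KO and 12.9 to 13.7 CPM in Lats1/2 flox ctrl, and a 3′ tag outside the deleted exons, which are not given, checks nothing. Hepatocyte markers summed to 65704 to 89940 CPM (marker sums are set to total counts alone) in ApoYap Dox and 97374 to 112903 in ApoYap ctrl, and to 85818 to 87236 in Lats1/2 KO and 88795 to 98896 in Lats1/2 flox ctrl. With the TMM scaling used for the factors, edgeR called 12 of 12 hepatocyte markers lower in ApoYap Dox (median log2 fold change -1.69) and 9 of 12 in Lats1/2 KO (median -0.62). Markers of macrophages, endothelial cells and stellate cells were higher in both activated groups. The 17 macrophage and Kupffer cell markers, of which edgeR called 17 higher in ApoYap Dox and 16 in Lats1/2 KO, summed to 12784 to 22161 CPM in ApoYap Dox against 92.0 to 221 in ApoYap ctrl, and to 878 to 2308 in Lats1/2 KO against 84.97 to 263 in Lats1/2 flox ctrl. For 16 sinusoidal endothelial markers (15 and 16 called higher) the sums were 1154 to 2206 in ApoYap Dox, 74.8 to 182 in ApoYap ctrl, 526 to 1411 in Lats1/2 KO and 74.5 to 221 in Lats1/2 flox ctrl. For 17 stellate cell and fibroblast markers (10 and 16 called higher) they were 336 to 584 in ApoYap Dox, 71.3 to 157 in ApoYap ctrl, 339 to 1098 in Lats1/2 KO and 80.1 to 94.7 in Lats1/2 flox ctrl. Of 10 bile duct markers 3 were tested, of which 0 were called higher and 1 lower in ApoYap Dox, and 2 higher and 0 lower in Lats1/2 KO. By total counts all 10 summed to 66.0 to 94.1 in ApoYap Dox against 44.3 to 58.3 in ApoYap ctrl, and to 91.0 to 257 in Lats1/2 KO against 51.1 to 92.9 in Lats1/2 flox ctrl. Neutrophil markers summed to 22.1 to 59.7 CPM in ApoYap Dox against 0.26 to 1.53 in ApoYap ctrl (4 of 4 tested called higher), and to 1.27 to 5.56 in Lats1/2 KO against 0.29 to 0.74 in Lats1/2 flox ctrl (2 of 4). Lymphocyte markers summed to 4.64 to 7.70 CPM in ApoYap Dox against 0.077 to 0.51 in ApoYap ctrl (1 of 1 tested called higher), and to 0.30 to 1.32 in Lats1/2 KO against 0 to 0.53 in Lats1/2 flox ctrl (0 of 1). Ly6g (neutrophils) and Trac (T cells) were at 0 in all 25. In bulk libraries fewer cells of a type and less RNA per cell cannot be told apart, and the part of other cells in the results that follow was not tested except where a value is given.

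In hepatocytes of untreated C57BL/6 mice, Yap1 was the most abundant of the 8 transcripts. Because each transcript gives 1 tag, levels of different genes can be set side by side without dividing by length. BL/6 ctrl libraries held 44.7 ± 1.35 CPM of Yap1, 29.0 ± 6.59 of Vgll4, 12.99 ± 3.29 of Wwtr1, 6.83 ± 0.57 of Tead1 and 2.86 ± 0.88 of Tead3 (SD, n = 4 each), and no neighbours in this order overlapped. Tead2, Tead4 and Vgll3 were at or near the limit of detection there, with 4, 2 and 0 counts over the 4 libraries; a limit of 3 counts over this group corresponds to 0.078 CPM. In Lats1/2 flox ctrl the order of the upper pair was not resolved, with Vgll4 at 47.1 ± 12.5 CPM and Yap1 at 43.3 ± 1.70 CPM (SD, n = 4).

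The order was different in ApoYap Dox. The means of Yap1, Vgll4, Wwtr1, Tead1 and Tead3 kept their BL/6 ctrl order in Lats1/2 KO, where neighbours above Tead3 overlapped. In ApoYap Dox libraries Wwtr1 (32.9 ± 2.74 CPM, SD, n = 3) and Vgll4 (31.0 ± 1.20) lay uppermost and overlapped each other, followed by Yap1 (20.7 ± 3.92) and Tead1 (20.4 ± 4.96), which also overlapped. Vgll3 (4.55 ± 0.55) and Tead4 (4.55 ± 0.91) came next and could not be ordered, nor could Tead3 (1.69 ± 0.14) and Tead2 (1.31 ± 0.56). In Lats1/2 KO libraries Yap1 (34.3 ± 3.83 CPM, SD, n = 3), Vgll4 (32.3 ± 1.23), Wwtr1 (26.99 ± 4.90) and Tead1 (25.5 ± 5.63) overlapped neighbour by neighbour. They lay above Tead3 (2.604 ± 0.311), Tead4 (1.09 ± 0.63) and Tead2 (0.32 ± 0.11), and Vgll3 was at 0.

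**Figure D1:**
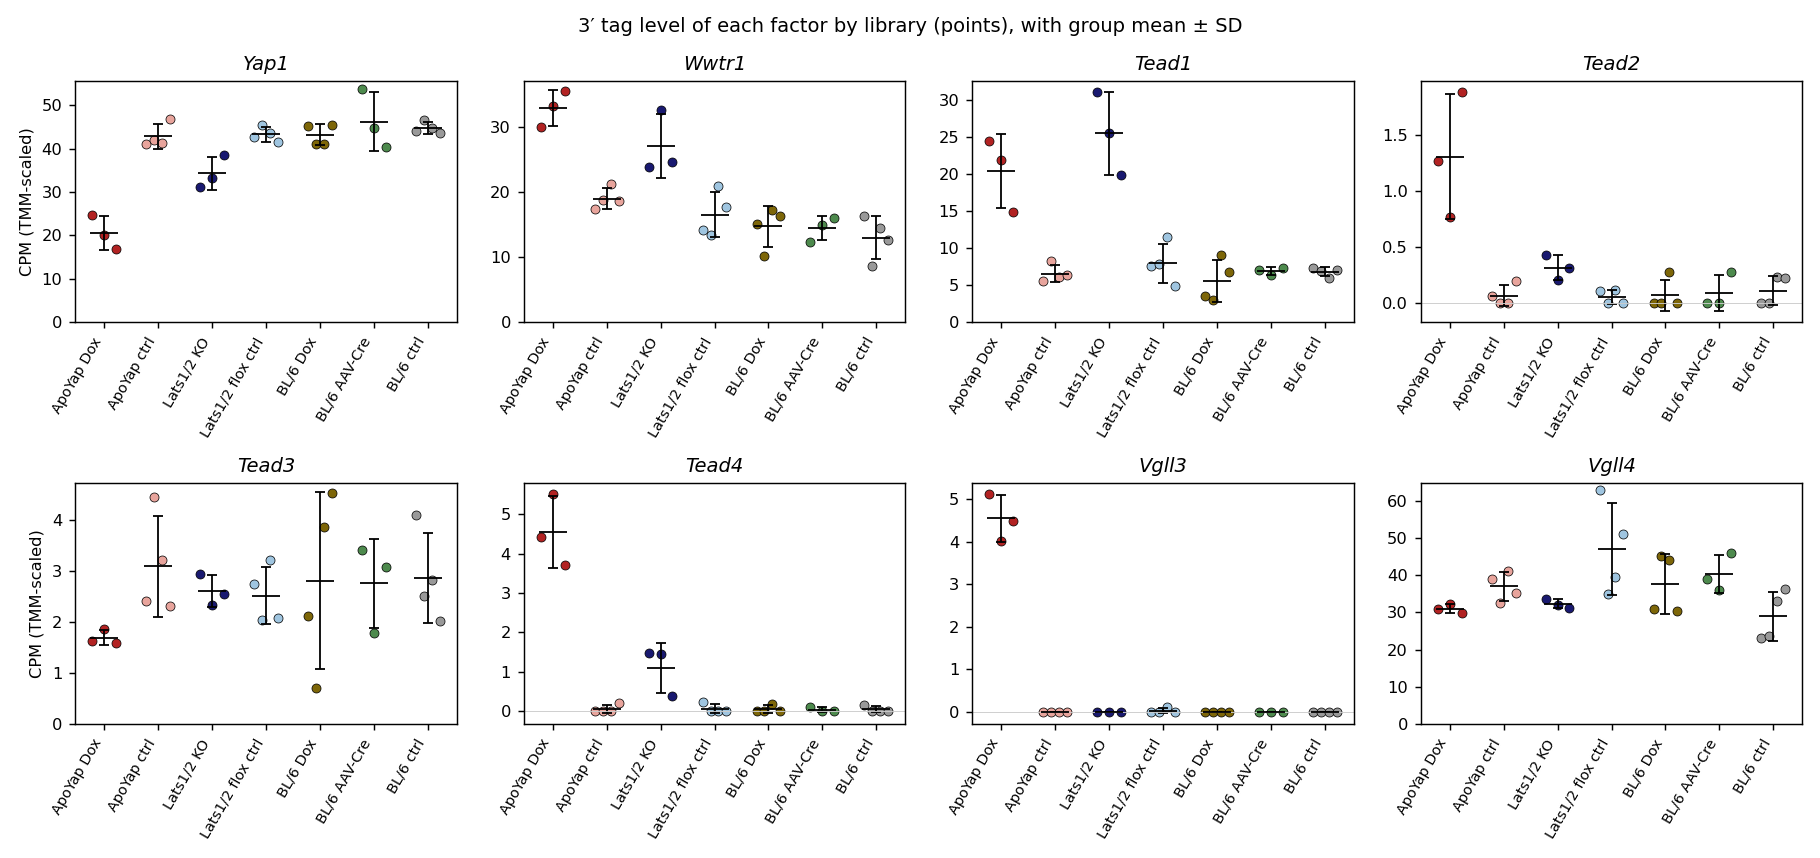
Levels of the 8 factors (y axis, TMM-scaled CPM, a scale of its own in each panel) in every library (points) of the 7 groups (x axis), with the group mean and SD as bars. Tead1 and Wwtr1 lie higher in both activated groups than in their controls, Tead4 was counted in more than traces in ApoYap Dox and, lower, in Lats1/2 KO, and Vgll3 in ApoYap Dox.

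After a week of human YAP, transcripts of TAZ and Tead1 rose. Tead2, Tead4 and Vgll3 had 91, 321 and 324 counts in ApoYap Dox, against 3, 2 and 0 in ApoYap ctrl. Lats1/2 KO held 14, 45 and 0 counts of them. In ApoYap Dox mouse Yap1 and, marginally, Tead3 fell with TMM scaling, and neither was called with total counts alone. edgeR's quasi-likelihood test (adjusted p under 0.05 over 12970 genes) called 7 of the 8 genes in ApoYap Dox against ApoYap ctrl, where 67% of all genes tested were called. All 8 had groups that did not overlap, against 69.4% of all genes. Tead2, Tead4 and Vgll3 passed the filter on low counts through ApoYap Dox alone, where they are high. Their place among the genes called, and among those without overlap, was therefore fixed by the filter. The other 5 pass without the ApoYap Dox libraries.

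With Lats1 and Lats2 deleted, Wwtr1, Tead1 and Tead4 rose, and Yap1 and Vgll4 fell with TMM scaling, neither of them called with total counts alone. The same test called 5 of the 8 genes in Lats1/2 KO against Lats1/2 flox ctrl, where 38% of all genes were called. For 6 of the 8 the groups did not overlap, against 39.7% of all genes. Both shares of calls lie near or only somewhat above those of all genes, so the number called is not itself a feature of these factors. With doxycycline alone (BL/6 Dox against BL/6 ctrl) 0 of the 8 were called by edgeR, DESeq2 or limma voom, where 0.123% of all genes were called by edgeR. With the virus alone (BL/6 AAV-Cre against BL/6 ctrl) 0 were called by these tools, where 0.301% of all genes were called by edgeR. With no adjustment for the number of genes, 1 gene passed 0.05 in each, which was Vgll4. Its log2 difference was 0.38 with doxycycline (adjusted p = 0.381, edgeR) and 0.48 with the virus (adjusted p = 0.242, edgeR), both against the same BL/6 ctrl libraries.

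**Figure D2:**
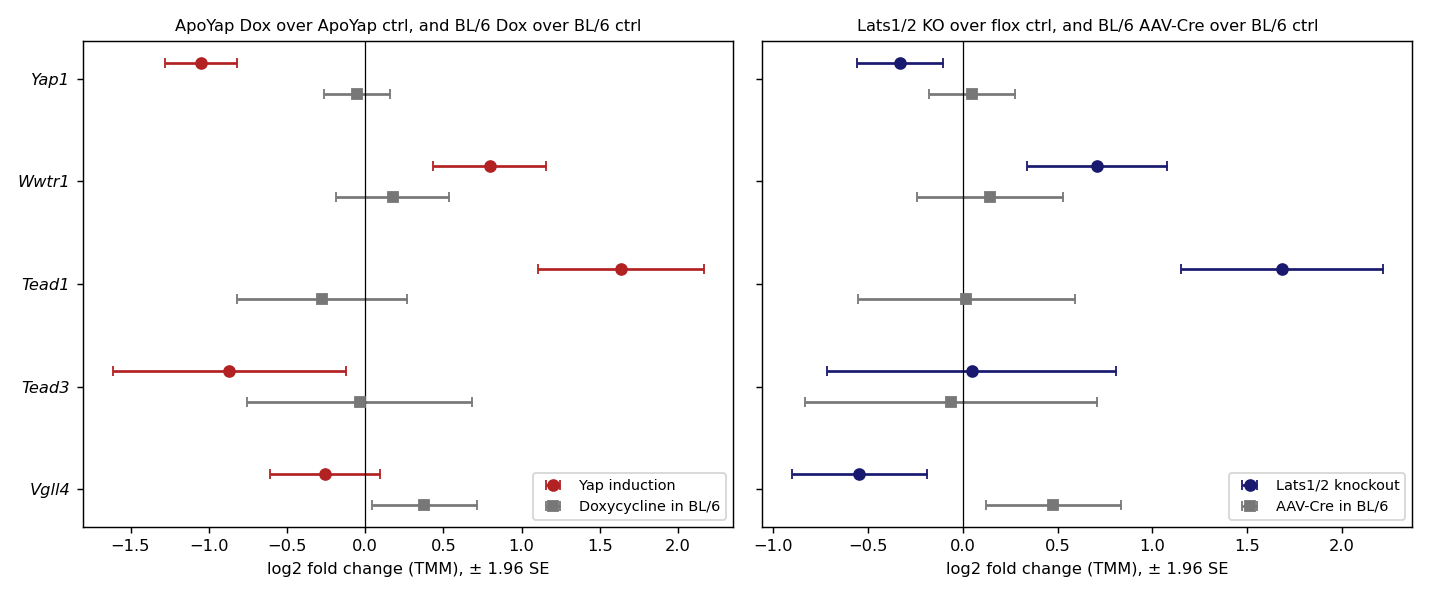
Log2 fold changes (x axis, TMM scaling) of the 5 factors counted in every library, with bars for 95% intervals. Yap induction is above doxycycline in BL/6 (left), and Lats1/2 knockout is above AAV-Cre in BL/6 (right). Wwtr1 (0.80 and 0.71) and Tead1 (1.63 and 1.68) lie to the right of 0 in both, and the grey values in BL/6 mice lie between -0.27 and 0.48.

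Yap1 and Wwtr1 encode the related coactivators YAP and TAZ, and their transcripts changed in opposite directions with TMM scaling. Yap1 (ENSMUSG00000053110, chromosome 9, 7931999 to 8004596, minus strand, GRCm38) stood at 24.8, 20.2 and 17.0 CPM in the ApoYap Dox libraries, against 41.0, 41.9, 41.3 and 46.9 CPM in ApoYap ctrl. Every ApoYap Dox library lay below every control, and edgeR gave -1.05 as the log2 fold change (SE 0.12, adjusted p = 2.34e-08). Gm20416, a transcript on the opposite strand that overlaps Yap1, held at most 3 counts in any library. Scaled by total counts alone, which moves the median of all genes by 0.92 on the log2 scale in this comparison, the difference was -0.13 (adjusted p = 0.291). Hepatocyte markers summed to 89940, 85830 and 65704 CPM by total counts in ApoYap Dox 1, 2 and 3, the same order as Yap1. In ApoYap ctrl the orders differed. With TMM scaling 12 of 12 of these markers were called lower in ApoYap Dox (median -1.69, edgeR). How far the fall of Yap1 is shared with these markers was not tested.

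Wwtr1 (chromosome 3, 57455649 to 57575910, minus strand) reached 30.0, 33.3 and 35.5 CPM in the ApoYap Dox libraries, against 17.4, 18.7, 21.2 and 18.5 CPM in ApoYap ctrl. The 3 treated libraries lay close together and above all controls. It rose 1.74-fold (log2 value 0.80, SE 0.18, adjusted p = 0.000484, edgeR), and the call held under all alternatives run for this comparison, including total counts alone (1.71) and leaving out each library (0.74 to 0.86).

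In the knockout, Wwtr1 was counted at 23.8, 32.6 and 24.6 CPM in Lats1/2 KO, against 14.2, 13.4, 21.0 and 17.7 CPM in Lats1/2 flox ctrl. The groups did not overlap, and the gene rose 1.63-fold (log2 value 0.71, SE 0.19, adjusted p = 0.00418, edgeR). Yap1 in the same libraries was counted at 31.2, 33.2 and 38.6 CPM in Lats1/2 KO, against 42.6, 45.4, 43.6 and 41.4 CPM in Lats1/2 flox ctrl. The knockout libraries lay just below the controls (-0.33, SE 0.12, adjusted p = 0.0263, edgeR). That call was lost with DESeq2 (adjusted p = 0.0705), RLE scaling (0.0686), no filter (0.0818) and only these groups in the fit (0.0892), and the difference was 0.14 with total counts alone. It was also lost without Lats1/2 flox ctrl 2 (-0.31), Lats1/2 KO 1 (-0.27) or Lats1/2 KO 2 (-0.30).

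Wwtr1 was highest in ApoYap Dox 3 and in Lats1/2 KO 2, and macrophage and endothelial markers were highest in the same libraries. In ApoYap Dox 3 these markers summed to 22161 and 2206 CPM, against 12784 to 13425 and 1154 to 1420 in the other ApoYap Dox libraries. In Lats1/2 KO 2 they summed to 2308 and 1411, against 878 to 1008 and 526 to 577 in the other Lats1/2 KO libraries. Stellate sums were highest in these libraries too, at 584 and 1098. Endothelial and stellate cells are known to express Wwtr1. The part of these cells in the rise of Wwtr1 was not tested.

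The balance of the coactivator transcripts was also read within each library, where no scaling between libraries enters. The log2 ratio of Wwtr1 to Yap1 counts was 0.28, 0.72 and 1.06 in the ApoYap Dox libraries, so that TAZ transcripts outnumbered those of mouse Yap1 in each of them, against -1.34 to -0.96 in ApoYap ctrl. The means were 0.69 ± 0.39 (SD, n = 3) in ApoYap Dox and -1.17 ± 0.16 (SD, n = 4) in ApoYap ctrl, a difference of 1.86 (two-sided exact permutation p = 0.0571, the smallest that 3 against 4 libraries allow; 0.137 adjusted over the 12 ratio tests). In Lats1/2 KO the ratio was -0.36 ± 0.32 (SD, n = 3) and in Lats1/2 flox ctrl -1.41 ± 0.32 (SD, n = 4), again without overlap (difference 1.05, exact permutation p = 0.0571, 0.137 adjusted). In BL/6 Dox it was 0.24 higher and in BL/6 AAV-Cre 0.14 higher than in BL/6 ctrl, with overlapping groups (exact permutation p = 0.429 and 0.686).

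**Figure D3:**
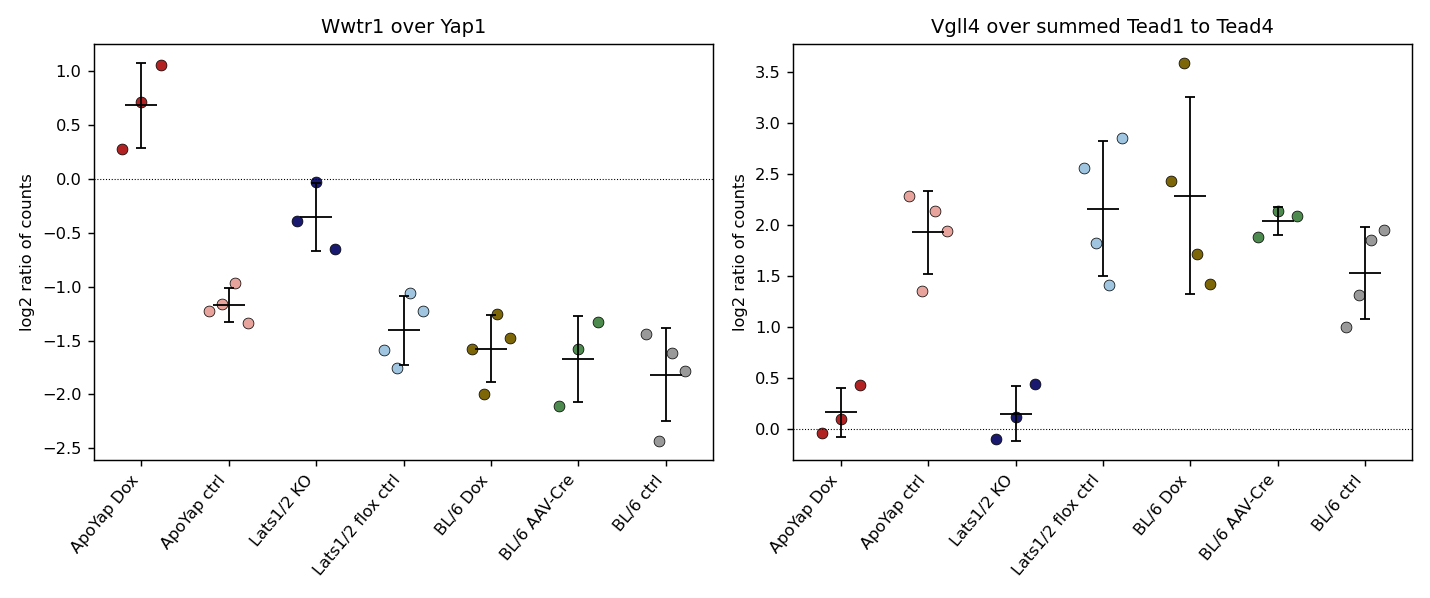
Log2 ratio of counts within each library (y axis) of Wwtr1 to Yap1 (left) and of Vgll4 to the summed Tead1 to Tead4 (right), by group (x axis), with points for libraries and bars for mean and SD. In ApoYap Dox the 3 Wwtr1 ratios lie above 0, and in ApoYap Dox and Lats1/2 KO the Vgll4 ratios lie between -0.09 and 0.44, below all libraries of the other groups.

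Among the TEADs, which carry the coactivators to DNA, Tead1 was the main transcript in every group. Tead1 (chromosome 7, 112679318 to 112906807, plus strand) reached 24.5, 21.9 and 14.9 CPM in the ApoYap Dox libraries, against 5.51, 8.22, 6.13 and 6.42 CPM in ApoYap ctrl. The lowest treated library lay above the highest control. It rose 3.11-fold (log2 value 1.63, SE 0.27, adjusted p = 9.09e-06, edgeR).

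The knockout libraries held Tead1 at 31.1, 25.5 and 19.8 CPM, against 7.57, 7.84, 11.4 and 4.93 CPM in Lats1/2 flox ctrl. The groups did not overlap, and the rise was 3.21-fold (log2 value 1.68, SE 0.27, adjusted p = 3.57e-05, edgeR). The knockout's log2 fold change less that of Yap induction was 0.05 (95% interval -0.71 to 0.81, adjusted p = 0.944, edgeR), an interval wide enough to hold a difference of either sign. Tead1 rose under all alternatives run for either comparison, with log2 values between 1.48 and 2.55 for ApoYap Dox and between 1.51 and 2.15 for Lats1/2 KO.

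Tead1 was lowest in ApoYap Dox 3, whose macrophage and endothelial sums were the highest of its group, and highest in Lats1/2 KO 1, whose sums of these were the lowest of its group. Stellate sums were 470, 336 and 584 CPM in ApoYap Dox 1, 2 and 3. In Lats1/2 KO 1, 2 and 3 they were 472, 1098 and 339 CPM, lowest in library 3, as was Tead1. Bile duct markers summed to 257, 192 and 91.0 CPM in Lats1/2 KO 1, 2 and 3, the same order as Tead1, and to 94.1, 66.0 and 73.7 CPM in ApoYap Dox 1, 2 and 3, where Tead1 was lowest in library 3. These orders rest on 3 libraries a group and carry no test. In BL/6 mice Tead1 was at 3.53, 2.98, 9.06 and 6.73 CPM in BL/6 Dox and at 6.01 to 7.31 CPM in BL/6 ctrl. BL/6 Dox 1 and 2 held only 25 Tead1 counts each, and without both the log2 difference was 0.21 in place of -0.27.

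Tead4 (chromosome 6, 128224288 to 128300823, minus strand), a TEAD known from the trophectoderm of the early embryo and from muscle, was all but absent in untreated hepatocytes. It had 122, 122 and 77 counts in ApoYap Dox, against 0, 0, 0 and 2 counts in ApoYap ctrl. Over the groups the scaled ratio was 104 (exact binomial 95% interval 28.6 to 863, counting error only), and its call there was fixed by the filter. Knockout libraries had 17, 21 and 7 counts, against 2, 0, 0 and 0 counts in Lats1/2 flox ctrl, a ratio of 18.2 (4.76 to 155; adjusted p = 0.00132, edgeR). Its level in Lats1/2 KO (0.37 to 1.47 CPM) lay below that in ApoYap Dox (3.72 to 5.52 CPM), while the difference of the fold changes was not called (adjusted p = 0.372, edgeR). The remaining groups, BL/6 Dox, BL/6 AAV-Cre and BL/6 ctrl, held 2, 1 and 2 Tead4 counts in all.

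Tead2 (chromosome 7, 45215753 to 45233644, plus strand), known for its expression in the early embryo, had 35, 17 and 39 counts in ApoYap Dox, against 1, 0, 0 and 2 counts in ApoYap ctrl. The scaled ratio was 19.7 (6.52 to 97.1), and here too the filter fixed the call. With the knockout there were 5, 3 and 6 counts in Lats1/2 KO, against 1, 0, 1 and 0 counts in Lats1/2 flox ctrl, a ratio of 5.67 (1.30 to 51.4; adjusted p = 0.114, edgeR), which was called with total counts alone (adjusted p = 0.0474).

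The Tead2 count carries a limit of position. The last 13 bases of Tead2 overlap the 3′ end of Cd37 (chromosome 7, 45233632 to 45239115), a tetraspanin of leukocytes on the opposite strand, named here for that overlap, and the use of strand in counting is not given in the sources used here. Cd37 had 191 to 456 counts in ApoYap Dox libraries, and Tead2 equalled 8.93%, 8.90% and 8.55% of it in these libraries. With the knockout Cd37 had 7, 38 and 17 counts, and Tead2 equalled 71.4%, 7.89% and 35.3% of it. The nearly fixed share in ApoYap Dox is given as measured, and whether reads of Cd37 enter the Tead2 count was not tested.

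Tead3 (chromosome 17, 28331671 to 28350817, minus strand), a TEAD with high levels in placenta, was not called higher in either activated group. It stood at 1.63, 1.85 and 1.59 CPM in the ApoYap Dox libraries, against 2.40, 4.44, 3.22 and 2.31 CPM in ApoYap ctrl. The treated libraries lay below the controls, with a log2 value of -0.87 (SE 0.38, adjusted p = 0.0476, edgeR), at the edge of the threshold. The call was lost with DESeq2 (adjusted p = 0.0608), RLE scaling (0.0771), no filter (0.0643) and without any 1 of ApoYap ctrl 2 or 3 or ApoYap Dox 1, 2 or 3 (-0.94 to -0.64), and total counts alone gave 0.04. Knockout libraries held Tead3 at 2.94, 2.33 and 2.55 CPM, against 2.04 to 3.22 CPM in Lats1/2 flox ctrl, with overlap (0.05, SE 0.39, adjusted p = 0.938, edgeR).

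Within a library, the make-up of the TEAD transcripts was different in the 2 activated groups. Tead4 gave 13.9% to 18.4% of TEAD counts in ApoYap Dox libraries and 1.61% to 4.87% in Lats1/2 KO libraries, and at most 2.20% in any library of the other groups. For ApoYap Dox 1 the exact 95% interval of this share is 11.7% to 16.3% of 879 counts. Tead3 gave 5.12% to 7.22% in ApoYap Dox against 25.3% to 35.1% in ApoYap ctrl, and 7.89% to 11.1% in Lats1/2 KO against 20.7% to 29.6% in Lats1/2 flox ctrl. Tead1 gave 86.3% ± 0.34 (SD, n = 3) in Lats1/2 KO and 74.6% ± 4.46 (SD, n = 4) in Lats1/2 flox ctrl, without overlap, a difference of 11.8 percentage points (exact permutation p = 0.0571, the smallest possible; 0.137 adjusted over 12). In ApoYap Dox the Tead1 share was 72.4% ± 4.83 (SD, n = 3) and in ApoYap ctrl 67.5% ± 2.64 (SD, n = 4), with overlap (difference 4.97, exact permutation p = 0.171).

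**Figure D4:**
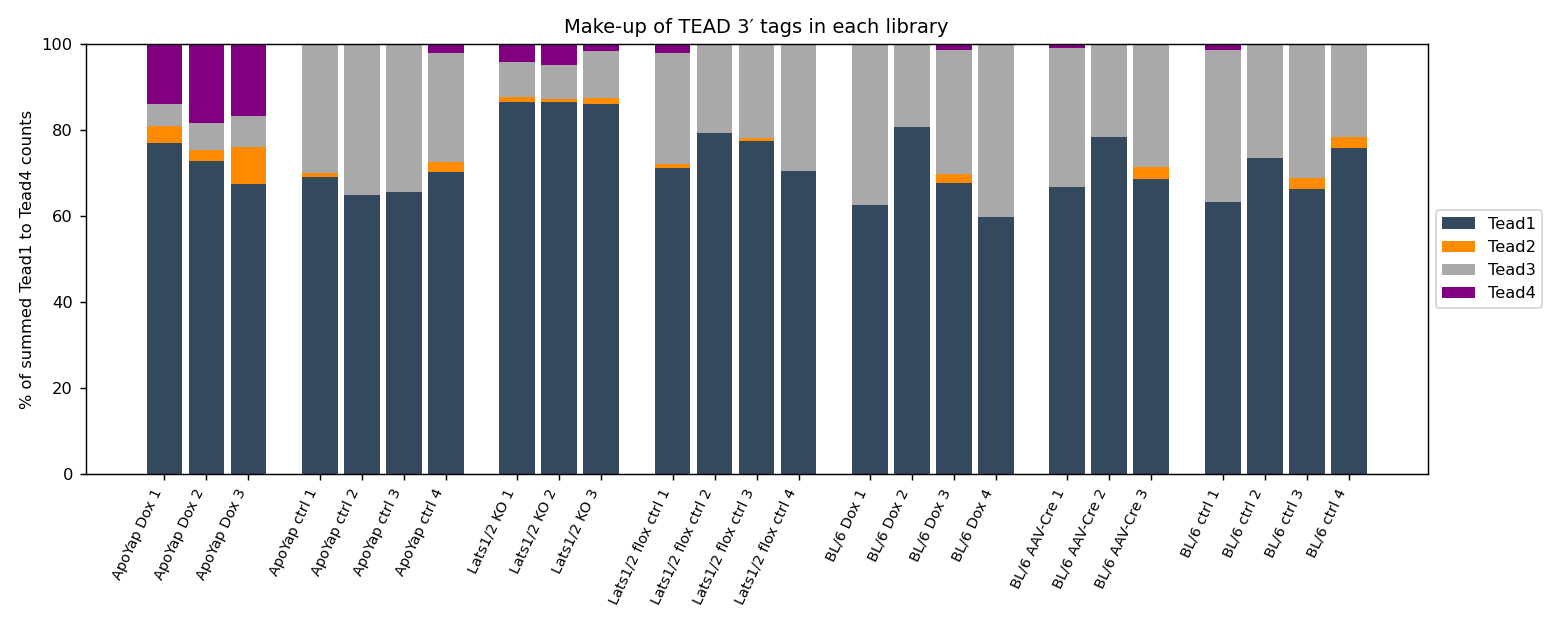
Share of each TEAD transcript in the summed Tead1 to Tead4 counts (y axis, percent) of every library (x axis, grouped). Tead1 (dark blue) makes up the largest share in every library, Tead3 (grey) makes up at most 11.1% in ApoYap Dox and Lats1/2 KO libraries, and Tead4 (purple) reaches 13.9% to 18.4% in ApoYap Dox.

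Vgll3, a TEAD cofactor, was detected in ApoYap Dox and, apart from 1 count, in no other group. Vgll3 (chromosome 16, 65815257 to 65866368, plus strand; promoter window above) had 142, 89 and 93 counts in ApoYap Dox, which are 5.13, 4.03 and 4.49 CPM, against 0 counts in each of the 4 ApoYap ctrl libraries. Set against a limit of 3 counts over the control group, it was at least 70.0-fold higher. Its call in this comparison is not given as support, since it was tested through these libraries alone. Each Lats1/2 KO library had 0 counts of it, which allows a level of up to 0.067 CPM over the group, and Lats1/2 flox ctrl had 1 count in 1 library. The fitted difference between the knockout and Yap induction was set by that count and could not be estimated without Lats1/2 flox ctrl 3, which held it, so no test of it is used. The related Vgll1 and Vgll2 were at 0 in all 25 libraries. ApoYap Dox is also the group with the most macrophage marker tags, 12784 to 22161 CPM against 878 to 2308 in Lats1/2 KO, and the part of these cells in the Vgll3 counts was not tested. Among the 3 ApoYap Dox libraries Vgll3 and the macrophage sum were both lowest in ApoYap Dox 2, and the highest were ApoYap Dox 1 for Vgll3 and ApoYap Dox 3 for the macrophage sum.

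Vgll4, the competitor of YAP for the TEADs, was lower in the knockout than in Lats1/2 flox ctrl with TMM scaling. Vgll4 (chromosome 6, 114860628 to 114969994, minus strand) was counted at 33.6, 32.0 and 31.2 CPM in Lats1/2 KO, against 62.9, 35.1, 39.4 and 51.0 CPM in Lats1/2 flox ctrl. The knockout libraries lay close together below spread-out controls, and edgeR called a log2 value of -0.55 (SE 0.18, adjusted p = 0.0194). The call was lost without Lats1/2 flox ctrl 1 (-0.37), Lats1/2 KO 2 (-0.54) or Lats1/2 KO 3 (-0.52), with limma voom (-0.43, adjusted p = 0.0736), with only these groups in the fit (-0.48, adjusted p = 0.0871) and with total counts alone (-0.08). BL/6 ctrl libraries lay at 23.3 to 36.3 CPM, a range that holds every Lats1/2 KO value. Lats1/2 flox ctrl was called higher than BL/6 ctrl (0.70, adjusted p = 0.0177, edgeR), a call lost without some single libraries. In ApoYap Dox Vgll4 was at 30.9, 32.2 and 29.8 CPM, against 39.1, 32.4, 41.2 and 35.3 CPM in ApoYap ctrl, which do not overlap by a narrow margin. Its log2 difference was not called (-0.26, SE 0.18, adjusted p = 0.209, edgeR), and with total counts alone it was 0.66 and called (adjusted p = 0.00255).

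Set against the TEADs in the same library, Vgll4 lay lower in every activated library than in any control. The log2 ratio of Vgll4 to the summed TEAD counts was 0.17 ± 0.24 (SD, n = 3) in ApoYap Dox and 1.93 ± 0.41 (SD, n = 4) in ApoYap ctrl, a difference of -1.77 without overlap (exact permutation p = 0.0571, the smallest possible; 0.137 adjusted over 12). In Lats1/2 KO the ratio was 0.16 ± 0.27 (SD, n = 3) and in Lats1/2 flox ctrl 2.16 ± 0.66 (SD, n = 4), a difference of -2.01 without overlap (exact permutation p = 0.0571, 0.137 adjusted). In BL/6 Dox it was 0.76 higher and in BL/6 AAV-Cre 0.50 higher than in BL/6 ctrl, with overlap (exact permutation p = 0.229 and 0.114). The TEAD sum, mostly Tead1, was higher in both activated groups, so the ratio carries that rise as well as any change of Vgll4.

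The log2 fold change measured with each treatment in BL/6 mice was subtracted from that of the activated group. For the virus it was measured at 24 hours, while the knockout was sampled at 1 week. An effect of the virus at 1 week is therefore not taken off. Of the 8 genes, 6 were called net of doxycycline, where 54.1% of all genes were called. They include Tead2 and Tead4, which were tested through ApoYap Dox alone and had 0 to 3 counts in each BL/6 library, so the count is not read against that share. Tead1 (1.91, SE 0.39, adjusted p = 0.000189) and Yap1 (-0.997, SE 0.16, adjusted p = 9.09e-06) kept their calls in edgeR without any single library, though with total counts alone Yap1 was at -0.07 and not called. Wwtr1 (0.62, adjusted p = 0.0466), Tead2 (4.37, adjusted p = 0.0325), Tead4 (6.22, adjusted p = 0.0227) and Vgll4 (-0.64, adjusted p = 0.0328) were called too, all less firmly. The Wwtr1 call was lost (0.48 to 0.64) without any 1 of ApoYap ctrl 1, 2 or 4, ApoYap Dox 2 or 3, BL/6 ctrl 1, 3 or 4 or BL/6 Dox 1 or 2. The Tead2 call was lost (3.80 to 4.07) without any 1 of ApoYap ctrl 2 or 3, ApoYap Dox 3, BL/6 ctrl 3 or 4 or BL/6 Dox 1, 2 or 4, and the Tead4 call without BL/6 ctrl 1 (3.67). The Vgll4 call was lost (-0.63 to -0.54) without any 1 of ApoYap ctrl 1 or 3, ApoYap Dox 1 or 3, BL/6 ctrl 1 or 2 or BL/6 Dox 2 or 3, and total counts alone gave 0.30. Net of the virus 2 of the 8 were called, where 24.4% of all genes were called. These were Tead1 (1.66, SE 0.40, adjusted p = 0.00419) and Vgll4 (-1.02, SE 0.26, adjusted p = 0.00539), and both calls held without any single library, while total counts alone gave -0.57 for Vgll4, which was not called. For Vgll4 about as much of this difference came from BL/6 mice, where it was 0.48 with the virus, as from the knockout (-0.55). Wwtr1 (0.56, adjusted p = 0.136) and Yap1 (-0.38, adjusted p = 0.0936) were not called net of the virus by edgeR. Wwtr1 was called with total counts alone (1.03) and without BL/6 ctrl 2 (0.71), Yap1 with voom (-0.41) and without Lats1/2 KO 3 (-0.47), and Tead4 with voom (4.02). Tead3 net of doxycycline (-0.83, adjusted p = 0.188, edgeR) was called with voom (-1.07), without BL/6 Dox 2 (-1.15) and without both BL/6 Dox 1 and 2 (-1.40). For Vgll3, at 0 in BL/6 libraries, no net difference could be estimated.

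The 2 routes of activation were compared directly, as the log2 fold change in the knockout less that of Yap induction. Of the 8 genes 2 were called, where 29.8% of all genes were called, and 1 of these was Vgll3, tested through ApoYap Dox alone and set by a single count. Yap1 fell less in the knockout (difference 0.72, SE 0.16, adjusted p = 0.00159, edgeR), though with total counts alone the difference was 0.27 and not called. Wwtr1 differed by -0.09 (95% interval -0.61 to 0.43) and Vgll4 by -0.29 (-0.79 to 0.21), neither of them called, though with total counts alone Vgll4 differed by -0.74 and was called (adjusted p = 0.0322, edgeR).

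**Figure D5:**
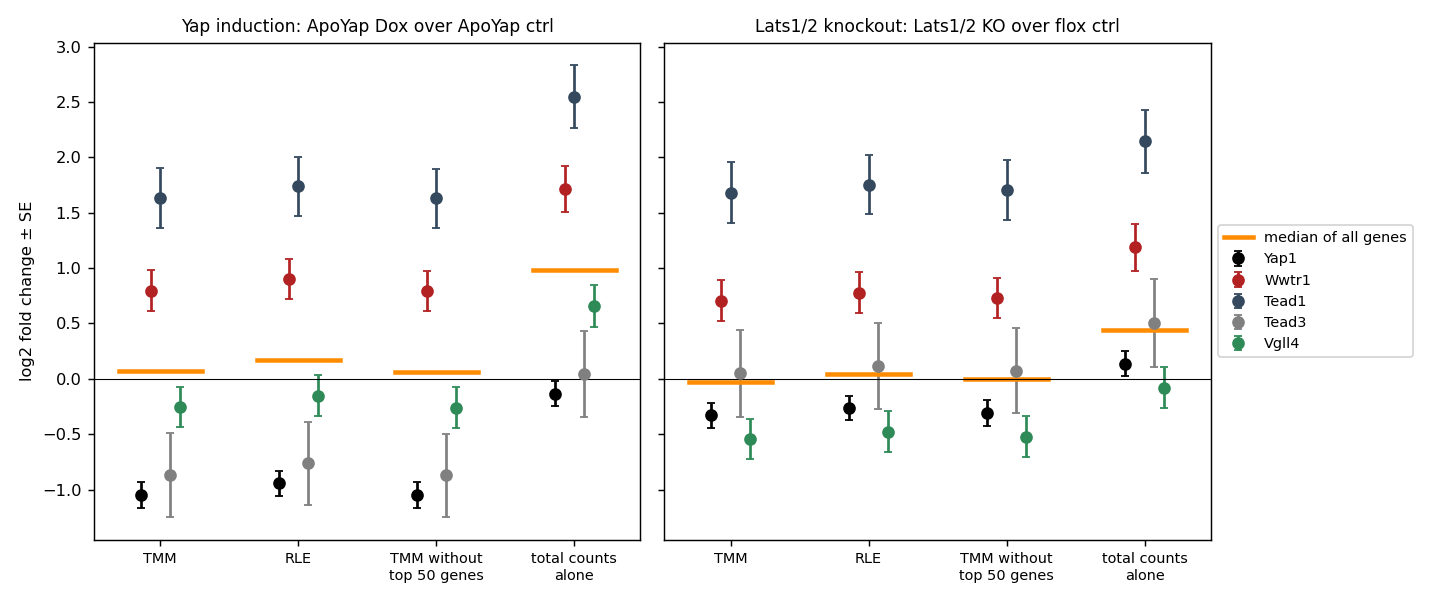
Log2 fold changes with SE (y axis) of 5 factors for Yap induction (left) and Lats1/2 knockout (right) under 4 ways of scaling the libraries (x axis), with the median of all genes as an orange line. Tead1 and Wwtr1 lie above the median of all genes under every scaling, and Yap1 lies below it, while the signs of Vgll4 and Tead3 for Yap induction and of Yap1 for the knockout change with total counts alone.

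Untreated mice of the 3 strains were compared as well. ApoYap ctrl against BL/6 ctrl gave 0 calls among the 8 by edgeR, DESeq2 or limma voom, where 0.439% of all genes were called by edgeR. With no adjustment 2 passed 0.05, Wwtr1 (0.54, adjusted p = 0.320) and Vgll4 (0.35, adjusted p = 0.648, edgeR). Wwtr1 was at 17.4 to 21.2 CPM in ApoYap ctrl and 8.59 to 16.3 CPM in BL/6 ctrl, without overlap, as was the case for 7.05% of all genes. Lats1/2 flox ctrl against BL/6 ctrl gave 1 call, where 4.12% of all genes were called. It was Vgll4, at 35.1 to 62.9 CPM in Lats1/2 flox ctrl and 23.3 to 36.3 CPM in BL/6 ctrl (0.70, SE 0.17, adjusted p = 0.0177, edgeR), and it was lost without Lats1/2 flox ctrl 1 (0.53), BL/6 ctrl 1 (0.61) or BL/6 ctrl 2 (0.62). Vgll4 was thus higher in mean in every other group than in BL/6 ctrl, and the comparisons with doxycycline, with the virus and between strains share the same 4 BL/6 ctrl libraries.

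Other genes of the pathway were read from lists by role, with log2 fold changes given for the genes named. The lists are not separate. Lats2, deleted in the knockout, is both among the kinases and in the target signature. Amotl2 and Ptpn14 are both among the genes for binding and turnover and in the target signature. Of 14 Hippo kinases and adaptors tested, 8 rose and 1 fell in ApoYap Dox, against 35% and 32% of all genes tested, with a median log2 fold change of 0.85 (0.07 over all genes). Map4k4, a kinase upstream of LATS, rose by 2.97, Mob1a, a LATS cofactor, by 1.56, and the scaffolds Wwc2 and Wwc1 by 1.45 and 1.09. The gene that fell was Mob1b (-0.89), named after its value was seen. With the knockout 4 rose and 2 fell, against 20.6% and 17.4% of all genes, with a median of 0.19 (-0.03 over all genes). Map4k4 rose by 2.26, Wwc2 by 1.13 and Wwc1 by 1.05, and the genes that fell were the deleted Lats1 (-1.67) and Taok3 (-0.52), the second named after its value was seen.

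Among 17 genes for binding and turnover of YAP and TAZ, 11 rose and 1 fell in ApoYap Dox (35% and 32% of all genes; median 0.55), and 11 rose and 0 fell in Lats1/2 KO (20.6% and 17.4% of all genes; median 0.56). Amotl2, an angiomotin that holds YAP in the cytoplasm, rose by 3.16 in ApoYap Dox and by 2.77 in Lats1/2 KO. Ajuba and Wtip, LIM proteins that inhibit LATS, rose by 2.81 and 4.16 in ApoYap Dox and by 4.74 and 3.12 in Lats1/2 KO. Amot rose by 1.77 in ApoYap Dox and by 2.06 in Lats1/2 KO. The gene that fell in ApoYap Dox was the kinase Nlk (-0.35), named after its value was seen.

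Among 20 nuclear partners of YAP and TEAD, 16 were tested, of which 12 rose and 0 fell in ApoYap Dox (35% and 32% of all genes; median 0.98), and 8 rose and 0 fell in Lats1/2 KO (20.6% and 17.4% of all genes; median 0.52). Runx1, a transcription factor that blood cells express strongly, rose by 6.19 in ApoYap Dox and by 4.33 in Lats1/2 KO, and Ctbp2, a corepressor, by 4.34 in ApoYap Dox and by 2.502 in Lats1/2 KO. Srf, the serum response factor, rose by 1.41 in ApoYap Dox and by 0.57 in Lats1/2 KO. The macrophage sums given above were highest in ApoYap Dox, and their part in these rises was not tested.

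The YAP and TAZ target signature had 22 genes, and 20 were tested. In ApoYap Dox 15 rose and 1 fell (Nt5e, -1.70, named after its value was seen), against 35% and 32% of all genes, with a median of 1.97. In Lats1/2 KO 14 rose and 0 fell, against 20.6% and 17.4% of all genes, with a median of 2.40. Crim1, a transmembrane regulator of growth factors, rose by 2.05 in ApoYap Dox and by 2.67 in Lats1/2 KO, and Myof, a membrane repair protein, by 5.70 in ApoYap Dox and by 3.10 in Lats1/2 KO. None of the 4 lists had a call with doxycycline or the virus alone by edgeR.

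Genes whose log2 CPM over the 25 libraries was most like that of each factor were found among 6933 or 6934 genes whose average log2 CPM reached 3, by Pearson's r. The libraries fall into activated and other groups, which every such r shares, so the values are a description. Yap1 was most like Enpp2 (0.967), which encodes autotaxin, and Sult2a8 (0.962), a sulfotransferase. Tead1 was most like Nid1 (0.930), a basement membrane protein, and Sptan1 (0.919), a spectrin. Wwtr1 was most like Ssbp4 (0.887) and Rasa3 (0.881). Tead4 was most like Timd4 (0.964), a receptor of Kupffer cells, and Iqgap1 (0.963), an actin scaffold, and Vgll3 like Smpdl3a (0.960) and Atp6v0e (0.958), a subunit of the vacuolar proton pump. Tead2 was most like Klc1 (0.906) and Ppp1r12a (0.887), and Tead3 like Bsdc1 (0.815) and Dhx36 (0.802). For Vgll4 the values were lower, at 0.677 for Zbtb11 and 0.676 for Pias2.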

How the data were processed

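Per the submitters' processing notes, the authors used FastQC, cutadapt and STAR 2.6.1d with mm10/GRCm38 for the QuantSeq 3′ reads of 25 libraries. Neither the counter nor its strand setting is given in the sources used here. The deposited values are raw counts per gene, whole numbers with no normalization, totalling 8107539 to 16515330 per library. Exact binomial intervals and floors cover counting error only. The 95% intervals of log2 fold changes come from the edgeR fit and also hold the spread between libraries. Every column of the table belonged to 1 sample. Groups came from the labels, and no 2 libraries held identical values.

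Genes with at least 10 counts in enough libraries and 15 in all (edgeR's filterByExpr; 12970 genes) were tested with edgeR 4.0.16 (R 4.3.3), with TMM scaling and a robust quasi-likelihood fit over all 7 groups, with Benjamini-Hochberg adjustment over all genes tested and a threshold of 0.05. Fitted fold changes used a prior count of 0.125. Low counts were compared by exact binomial intervals at 95% or against a floor of 3 counts over the group. Ratios within a library were compared by two-sided exact permutation tests, adjusted over 12. Scripts were tested on simulated counts. DESeq2 1.42.0, limma 3.58.1 (voom with quality weights), other scalings and filters, a threshold of 0.01, fewer groups, a replicate block and leaving out libraries were the alternatives. Positions came from the GENCODE annotation of GRCm38, and promoters from RefSeq.

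The members and the pathway and marker lists were chosen with earlier results of these data known, so counts over them are descriptions. All 8 members were named whatever their values. Of each pathway list, genes among the 4 smallest p in either comparison were named, and for each member the 2 genes most like it.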

Additional observations from a re-analysis of the deposited data

Results flagged for a closer look

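Yap1 in the 4 ApoYap ctrl libraries had one value apart, 46.9 CPM in ApoYap ctrl 4 against 41.0 to 41.9 CPM in the others. Dixon's test at 95% marked it, as it marks about 1 in 20 groups by chance. Of 32 groups of 4 libraries tested, 1 was marked. These were groups of Yap1, Wwtr1, Tead1, Tead3 and Vgll4 and of the ratios within a library. Tead2, Tead4 and Vgll3 had too few counts for it. Without this library Yap1 still fell in ApoYap Dox.

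Several log2 fold changes differed from those of the treatment in BL/6 mice by edgeR's interaction test. Net of doxycycline these were Yap1 (-0.997), Wwtr1 (0.62), Tead1 (1.91), Tead2 (4.37), Tead4 (6.22) and Vgll4 (-0.64). Net of the virus they were Tead1 (1.66) and Vgll4 (-1.02). The values for Tead2 and Tead4 rest on 0 to 3 counts in each library outside the activated groups. Both genes passed the filter on low counts through ApoYap Dox alone, so their calls net of doxycycline are not given as support. The calls of Wwtr1, Tead2, Tead4 and Vgll4 net of doxycycline were each lost without some single library, as given above.

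The fold change in the knockout differed from that of Yap induction for Yap1 (0.72) and Vgll3 (-10.63). The second is a fitted value set by a single count in Lats1/2 flox ctrl 3 against 0 in Lats1/2 KO, and it is no bound.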

How the results depend on the processing

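Over 77 results, 1395 values were recomputed, of which 1252 kept their direction and side of the threshold, 72 lost and 10 gained a call, 44 changed sign and 17 counts of calls moved by over 1.5 times. Scaling mattered most, and the cause was not tested. With total counts alone, which shifts the median of all genes by 0.92 for Yap induction and 0.47 for the knockout, signs changed for Tead3 (0.044) and Vgll4 (0.66) in Yap induction, Yap1 in the knockout (0.14), Tead3 (0.082) and Vgll4 (0.30) net of doxycycline, Yap1 net of the virus (0.078), Tead1 in the knockout less Yap induction (-0.40), and Yap1 (0.0091) and Tead1 (0.011) in ApoYap ctrl against BL/6 ctrl. With voom, signs changed for Tead3 with doxycycline (0.21) and Tead1 in the knockout less Yap induction (-0.034), and 4 genes were called net of the virus. Without BL/6 Dox 1 and 2, Tead1 (0.21) and Tead3 (0.53) changed sign with doxycycline.

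The filter of 10 CPM in 3 libraries tests fewer of the 8 genes and gave 3 calls for Yap induction, 3 net of doxycycline and 1 for the knockout less Yap induction. A threshold of 0.01 gave 3, 2, 1 and 0 calls for the knockout, net of doxycycline, the knockout less Yap induction and Lats1/2 flox ctrl against BL/6 ctrl. Only the groups compared gave 2 for the knockout and 0 for Lats1/2 flox ctrl against BL/6 ctrl.

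Leaving out 1 library gave 3 to 5 calls for the knockout and net of doxycycline, 1 to 2 for the knockout less Yap induction and 0 to 1 for Lats1/2 flox ctrl against BL/6 ctrl. Signs changed in differences that were not called with all libraries. With the virus the ranges were -0.036 to 0.071 (Tead1), -0.24 to 0.17 (Tead3), -0.0051 to 0.28 (Wwtr1), -0.077 to 0.14 (Yap1) and -0.061 to 0.36 (ratio of Wwtr1 to Yap1). With doxycycline Tead3 ranged over -0.34 to 0.28. In ApoYap ctrl against BL/6 ctrl they were -0.19 to 0.020 (Tead1) and -0.14 to 0.33 (Tead3), and in Lats1/2 flox ctrl against BL/6 ctrl -0.018 to 0.38 (Tead1) and -0.34 to 0.035 (Tead3). Tead3 ranged over -0.040 to 0.18 in the knockout and -0.13 to 0.29 net of the virus. In the knockout less Yap induction the ranges were -0.13 to 0.27 (Tead1), -4.74 to 0.31 (Tead4) and -0.24 to 0.043 (Wwtr1). The Tead1 share ranged over -6.41 to 0.55 points with doxycycline and -2.02 to 3.77 points with the virus.

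Same-numbered libraries did not deviate together (r -0.24 to 0.21), so the numbers were not taken as pairs. With the replicate block 6 genes were called for Yap induction in place of 7, since Tead3 was lost (-0.89, adjusted p = 0.0539, edgeR), Tead1 with the virus was at -0.011, and the other counts of calls were as without it. Counts of 0 to 4 in a group limit Tead2, Tead4 and Vgll3.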
